A study of Mus musculus with 12 samples.

Results

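The basement membrane genes followed here are 10 genes measured in mLTC-1 cells: the laminin chain genes Lama5, Lamb1, Lamb2 and Lamc1, the collagen IV genes Col4a1 and Col4a2, the linker genes Nid1 and Hspg2, and the receptor genes Dag1 and Itgb1. They were taken by symbol from a table of 26214 genes, and all 10 symbols were found. mLTC-1 is a mouse line of Leydig cells, the androgen-producing cells of the testis, grown in RPMI medium with fetal bovine serum. The MSNBA group of 6 libraries received 100 µM MSNBA, a benzodioxol amine that carries a methylsulfonyl nitrophenyl group, for 24 h, and the control group of 6 libraries received DMSO for the same time. The series names MSNBA a Glut5 inhibitor, Glut5 being a fructose transporter. The 10 genes were named with earlier results of these data known, and the fold changes of MSNBA over control are counted as the values they were selected on. Their differences between MSNBA and control are therefore given as a description, and nothing is supported with them.

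The basement membrane is a thin sheet of matrix that underlies epithelia and endothelia and wraps muscle and fat cells. Laminins are trimers of an alpha, a beta and a gamma chain that polymerize at the cell surface, and collagen IV forms a separate, covalently crosslinked network. Nidogen and the proteoglycan perlecan connect both networks, while integrins and dystroglycan anchor laminin to the cytoskeleton. In the testis, Leydig cells lie in the interstitium, outside the basement membrane of the tubules.

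Total counts ran from 94179 to 657251 in the MSNBA libraries and from 59113 to 234225 in the control libraries, and the geometric mean total was 2.14-fold higher in MSNBA. Nothing in the labels tells separate cultures from repeat libraries, so p-values cover the spread among these libraries alone, and that spread may be technical. The 7 Leydig markers Cyp11a1, Cyp17a1, Hsd3b1, Star, Insl3, Nr5a1 and Lhcgr were all detected. Their summed level ran from 7569 to 9388 CPM (counts per 1e6 counts of the library) in MSNBA libraries and from 7490 to 10905 CPM in control libraries. Endothelial markers, from a cell type rich in basement membrane, summed to 0 to 21.2 CPM in MSNBA and 0 to 50.8 CPM in control libraries. Fibroblast and peritubular markers summed to 22.8 to 127 CPM in MSNBA and 51.2 to 169 CPM in control libraries. Macrophage markers had 16 counts in MSNBA and 9 in control libraries, with Cd14 at 0, Sertoli markers 17 and 7, and germ cell markers 62 and 41. All 12 libraries are labelled as mLTC-1 cells, and these marker counts are not read as shares of other cell types. Their part in the results was not tested. In these libraries, fewer cells that express a gene and less of its RNA per cell cannot be told apart.

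A few receptor and laminin genes carried nearly all of the signal. Over the 12 libraries the 10 genes had 2329 counts, and Itgb1, Dag1 and Lamb2 held 91.9% of them, with 92.0% in MSNBA and 91.8% in control libraries. The receptors took 69.0% of the counts in MSNBA and 65.5% in control, the laminin chains 29.4% and 32.3%, the linkers 1.06% and 1.84%, and collagen IV 0.462% and 0.369%. These shares are of raw counts and are not scaled for transcript length. After the filter on low counts, 3 of the 10 genes were tested across replicates, and the other 7 had too few counts.

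To compare levels between genes, counts of all 12 libraries were pooled and given as CPM per kilobase of the longest coding transcript, with a 95% Poisson interval that covers counting error only. Itgb1, the integrin beta 1 subunit shared by most matrix-binding integrins, was highest at 98.7 CPM per kilobase (92.2 to 105.6). Dag1, whose product is cleaved into the alpha and beta subunits of the laminin receptor dystroglycan, stood at 55.9 (51.9 to 60.1). Lamb2, the laminin beta 2 chain, followed at 43.8 (40.3 to 47.6). Lamb1, the laminin beta 1 chain, measured 7.89 (6.45 to 9.56) and Lamc1, the gamma 1 chain found in most laminins, 2.42 (1.74 to 3.27).

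The remaining genes had 30 counts or fewer over all libraries. Hspg2, which encodes perlecan, had 30 counts in 11 of 12 libraries and measured 0.928 CPM per kilobase (0.626 to 1.33). Col4a1 measured 0.465 (0.187 to 0.957) and Col4a2 0.204 (0.0421 to 0.597). Nid1, which encodes nidogen 1, and Lama5, the laminin alpha 5 chain, had 1 count each over all libraries, at 0.0721 (0.00182 to 0.402) and 0.0385 (0.000976 to 0.215). Per kilobase, the order held in single libraries at its upper end. Itgb1 was above Dag1 in 12 of 12 libraries, Lamb2 above Lamb1 in 12 and Lamb1 above Lamc1 in 12. On the same scale Dag1 was above Lamb2 in 9 of 12 libraries, and Lamc1 above Hspg2 in 10. The intervals of Hspg2 and Col4a1 overlapped per kilobase. In CPM alone they did not, with Hspg2 at 8.89 to 18.8 and Col4a1 at 1.24 to 6.33. Those of Col4a1, Col4a2, Nid1 and Lama5 overlapped on both scales, so that these intervals gave no order among Col4a1, Col4a2, Nid1 and Lama5. Where molecular identifiers count each transcript once, the count does not grow with length, and the pooled order by CPM alone was the same for the 5 highest genes (Itgb1 377, Dag1 317, Lamb2 247, Lamb1 45.7 and Lamc1 18.4 CPM). In single libraries it was not always the same. Without scaling for length, Dag1 had more counts than Itgb1 in MSNBA replicate 5 (60 against 47), control replicate 1 (93 against 83) and control replicate 2 (39 against 35).

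**Figure D1:**
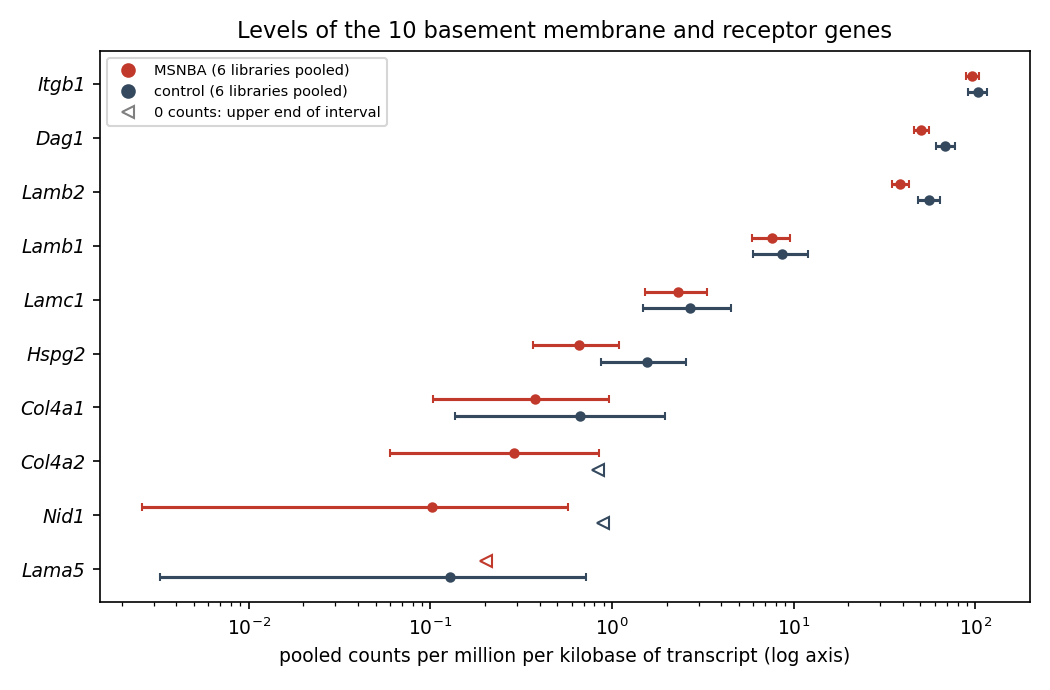
Pooled level of each of the 10 genes on a log axis, in CPM per kilobase of transcript, for the 6 MSNBA libraries (upper point of each pair) and the 6 control libraries (lower point). Bars are 95% Poisson intervals for counting error and open triangles mark the upper end of the interval where a group had 0 counts; Itgb1, Dag1 and Lamb2 stand well above the other 7 genes.

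Laminin chains were unevenly represented, with Lamb2 far above every other chain and Lama4 close to Lamb1 per kilobase. The alpha chain with the highest level was one outside the 10 genes, Lama4, at 7.99 CPM per kilobase with 110 counts, ahead of Lama1 with 40 counts at 1.84 CPM per kilobase, while Lama5 had 1 count. Lamc3 had 17 counts and Lamb3 had 7. The chains outside the 10 genes that are named in this and the next paragraphs on collagen IV and integrins were chosen after their values were seen. Pooled over the families, alpha chains measured 71.3 CPM in MSNBA and 70.6 CPM in control libraries, gamma chains 25.03 and 33.84 CPM and beta chains 265 and 368 CPM, without scaling for length.

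Among collagen IV genes, Col4a1 and Col4a2 encode the chains of the form found in nearly every basement membrane, and Col4a3 to Col4a6 encode chains known from the kidney, lung and a few other tissues. Col4a1 had 4 counts in MSNBA and 3 in control libraries. Col4a2 had 3 counts in MSNBA and 0 in control libraries, and the floor of 3 counts over the controls is 4.41 CPM. The tissue-restricted chains all had higher values than both: Col4a6 stood at 2.51 CPM per kilobase, Col4a4 at 2.35, Col4a5 at 1.34 and Col4a3 at 0.975, with 131 counts for these 4 genes against 10 for Col4a1 and Col4a2 together. The intervals of Col4a6 (1.78 to 3.44) and Col4a4 (1.76 to 3.06) lay above that of Col4a1 (0.187 to 0.957), whereas those of Col4a5 (0.821 to 2.07) and Col4a3 (0.587 to 1.52) overlapped it.

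Integrin beta 1 pairs with an alpha subunit that sets which matrix protein is bound. The alpha subunits best known for laminin, encoded by Itga3, Itga6 and Itga7, had 9 counts in MSNBA and 2 in control libraries, or 5.63 and 2.94 CPM. The other 9 alpha subunits measured together 182 CPM in MSNBA and 179.5 CPM in control libraries, led by Itga9, Itgav, Itga5 and Itga11 with 149, 97, 75 and 57 counts. Itga5 is the fibronectin receptor subunit and Itga11 a collagen receptor subunit. Per kilobase, Itgb5 was the next beta subunit after Itgb1, at 14.8 CPM.

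**Figure D2:**
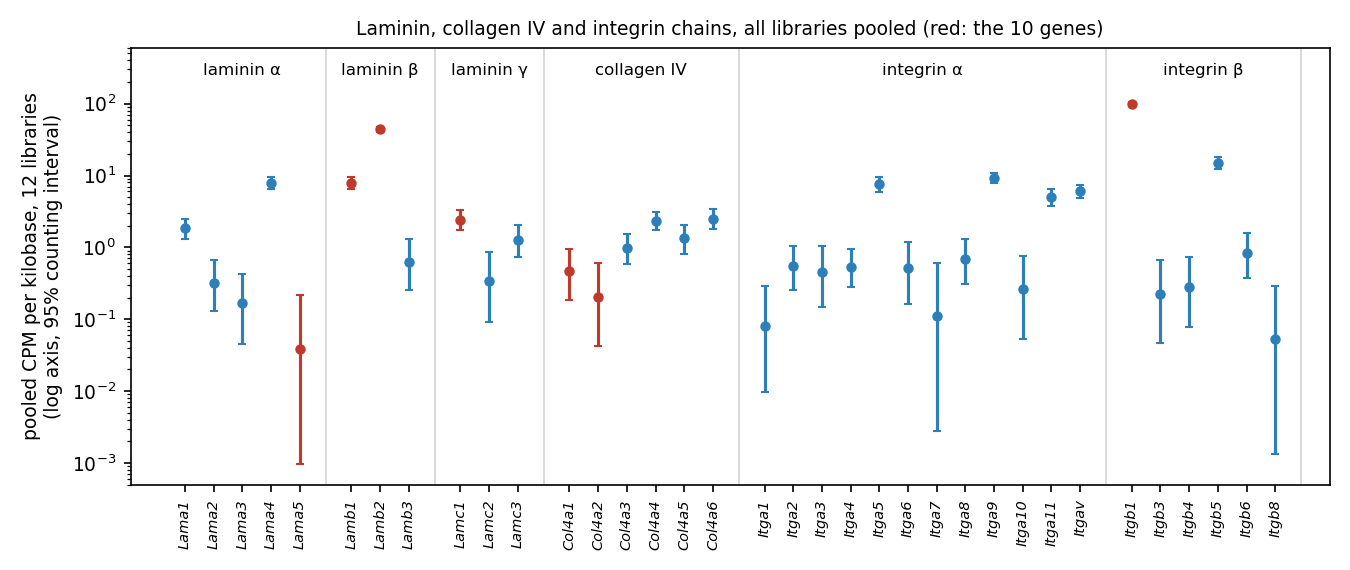
Pooled level of every listed laminin, collagen IV and integrin chain over all 12 libraries, in CPM per kilobase on a log axis with 95% Poisson intervals, red for the 10 genes and blue for the rest. Lamb2 is the highest laminin chain, Col4a1 and Col4a2 are the lowest collagen IV chains, and Itgb1 stands above every alpha subunit.

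The beta chain genes differ in the sequence around their annotated starts. RefSeq windows of 300 bases on GRCm38.p6, the assembly called mm10, were found for 9 of the 10 genes and Lamc1 had no entry. Lamb2 (chromosome 9, 108479847 to 108490530, plus strand) and Lamb1 (chromosome 12, 31265146 to 31329644, plus strand) are shown because Lamb2 is the chain that dominates in these cells, with the windows at chr9:108479612-108479911 and chr12:31265043-31265342. Capitals mark letters that match, on either strand, one of 5 searched motifs: the GC box GGGCGG, the CCAAT box CCAAT, the TATA box TATAAA, the AP-1 motif TGANTCA and the CRE TGACGTCA.
Lamb2: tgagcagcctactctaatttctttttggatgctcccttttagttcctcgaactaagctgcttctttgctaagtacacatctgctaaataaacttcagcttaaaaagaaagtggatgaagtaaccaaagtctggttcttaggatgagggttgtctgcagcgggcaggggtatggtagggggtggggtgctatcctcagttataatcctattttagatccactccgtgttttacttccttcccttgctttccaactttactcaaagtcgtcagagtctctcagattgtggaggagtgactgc
Lamb1: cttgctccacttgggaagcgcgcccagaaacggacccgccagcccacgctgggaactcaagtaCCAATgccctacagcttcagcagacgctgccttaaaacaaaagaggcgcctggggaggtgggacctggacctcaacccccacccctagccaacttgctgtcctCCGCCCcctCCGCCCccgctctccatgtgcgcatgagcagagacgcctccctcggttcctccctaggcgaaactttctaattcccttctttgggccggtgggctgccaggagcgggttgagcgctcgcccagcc
The Lamb2 window held 0 matches to the 5 motifs and was the lowest in GC, with 20.1% of all windows at or below its content, whereas the Lamb1 window held 2 GC boxes and 1 CCAAT box at 63.7% GC. The windows of the other 8 genes with an entry ranged from 63.7% to 75.3% GC, and the median of all 32851 windows was 52.7%.

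Col4a1 (chromosome 8, 11198423 to 11312889, minus strand) and Col4a2 (chromosome 8, 11312805 to 11449287, plus strand) start head to head and overlap by 85 bases in RefSeq. Their windows, chr8:11312777-11313076 on the minus strand and chr8:11312555-11312854 on the plus strand, share 78 bases and are shown because both genes had few counts, 7 and 3 over all libraries.
Col4a1: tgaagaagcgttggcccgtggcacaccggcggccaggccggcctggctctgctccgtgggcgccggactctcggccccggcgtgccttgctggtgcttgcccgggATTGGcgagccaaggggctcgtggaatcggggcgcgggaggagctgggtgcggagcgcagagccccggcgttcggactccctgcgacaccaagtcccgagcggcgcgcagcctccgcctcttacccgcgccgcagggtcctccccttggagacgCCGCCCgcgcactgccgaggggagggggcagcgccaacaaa
Col4a2: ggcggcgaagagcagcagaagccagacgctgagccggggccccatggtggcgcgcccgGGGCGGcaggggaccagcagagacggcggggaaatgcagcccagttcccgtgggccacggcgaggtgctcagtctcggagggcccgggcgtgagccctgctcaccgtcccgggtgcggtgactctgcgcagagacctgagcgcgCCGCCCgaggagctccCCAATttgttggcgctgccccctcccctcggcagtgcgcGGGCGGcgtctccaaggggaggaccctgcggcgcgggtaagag
The Col4a1 window held 1 GC box and 1 CCAAT box and the Col4a2 window 3 GC boxes and 1 CCAAT box, with the same marks as above. The GC box of Col4a1 and the last GC box printed for Col4a2 are the same site in the shared bases, which counts for both genes. A GC box was found in 8 of the 9 genes, against 35.7% of all windows, and a CCAAT box in 5 of 9, against 37.4%. Genes are thus set against single windows, with Dag1 counted through any of its windows. The comparison was not matched for GC content: the 8 genes with a GC box had 63.7% to 75.3% GC, against a median of 52.7% over all windows. The TATA box, AP-1 and CRE motifs were found in 0 of the 9 genes, against 13.6%, 7.81% and 1.79% of all windows. The counting is not stated to use strand, so reads from the annotated overlap of Col4a1 and Col4a2 cannot be told apart, nor can reads of Col4a1, Col4a2 and Nid1 from those of the antisense genes that GENCODE places over each.

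The study set MSNBA against control to see what inhibiting Glut5 does to Leydig cell RNA. By the edgeR quasi-likelihood test with Benjamini-Hochberg adjustment over 2614 genes, 0 of the 3 tested basement membrane genes passed an adjusted p of 0.05, where 0.0765% of all tested genes did. At an unadjusted p under 0.05, 2 of the 3 were lower, where 4.78% of all tested genes were lower at that level and 8.95% passed in either direction. DESeq2, run without the filter on low counts and adjusted over 19572 genes, called 0 of the 10 genes. It had 2 of them at an unadjusted p under 0.05, where it had 2.01% of its genes. By limma-voom 0 of 3 were called and 2 were at that level, where it had 9.91%. The fitted log2 fold changes of the 3 genes were all below 0, as were 51.5% of all tested genes, with a median of -0.49 against -0.01 over all tested genes. Since the genes were picked with this contrast known, nothing is read from these counts.

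Of the 3 tested basement membrane genes, Lamb2 had the widest fitted difference between the groups. Its lowest, median and highest normalized CPM, which are scaled over the tested genes by TMM factors, were 122, 254 and 292 in MSNBA libraries and 334, 418 and 520 in control libraries. Every MSNBA library lay below every control library, a pattern of 1 of the 3 tested genes and of 0.65% of all tested genes. Lamb2 averaged 244 ± 62.1 CPM in MSNBA and 424 ± 79.5 CPM in control libraries (SD, n = 6 each), a log2 fold change of -0.67 (SE 0.17), or 0.628-fold with a 95% interval from 0.493-fold to 0.80-fold. The lowest value, in MSNBA replicate 4, rests on 9 counts, and without that library the log2 fold change was -0.59 (SE 0.17). MSNBA libraries were deeper, and with log2 depth in the model the value was -0.72 (SE 0.20).

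Dag1 had a lower mean in MSNBA, with values that overlapped between the groups. Its normalized CPM had a lowest, median and highest value of 231, 363 and 413 in MSNBA and of 321, 495 and 645 in control libraries. Control replicate 4, at 321 CPM, was the control inside the MSNBA range, and the other 5 controls were above all MSNBA libraries. The means were 347 ± 61.1 CPM in MSNBA and 489 ± 103 CPM in control (SD, n = 6 each), a log2 fold change of -0.49 (SE 0.16), or 0.713-fold with an interval from 0.571-fold to 0.89-fold. Dag1 (chromosome 9, 108204861 to 108263977, minus strand) lies 216 kilobases from Lamb2 with 11 protein-coding genes between them.

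Itgb1 (chromosome 8, 128685654 to 128733579, plus strand) had the smallest difference of the 3. It measured 324, 448 and 490 normalized CPM at the lowest, median and highest MSNBA library, against 439, 507 and 650 in control libraries. The groups overlapped, with 3 MSNBA libraries above the lowest control. The means were 430 ± 66.3 CPM in MSNBA and 524 ± 77.9 CPM in control (SD, n = 6 each), and the log2 fold change of -0.23 (SE 0.15) had an interval from 0.696-fold to 1.05-fold.

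**Figure D3:**
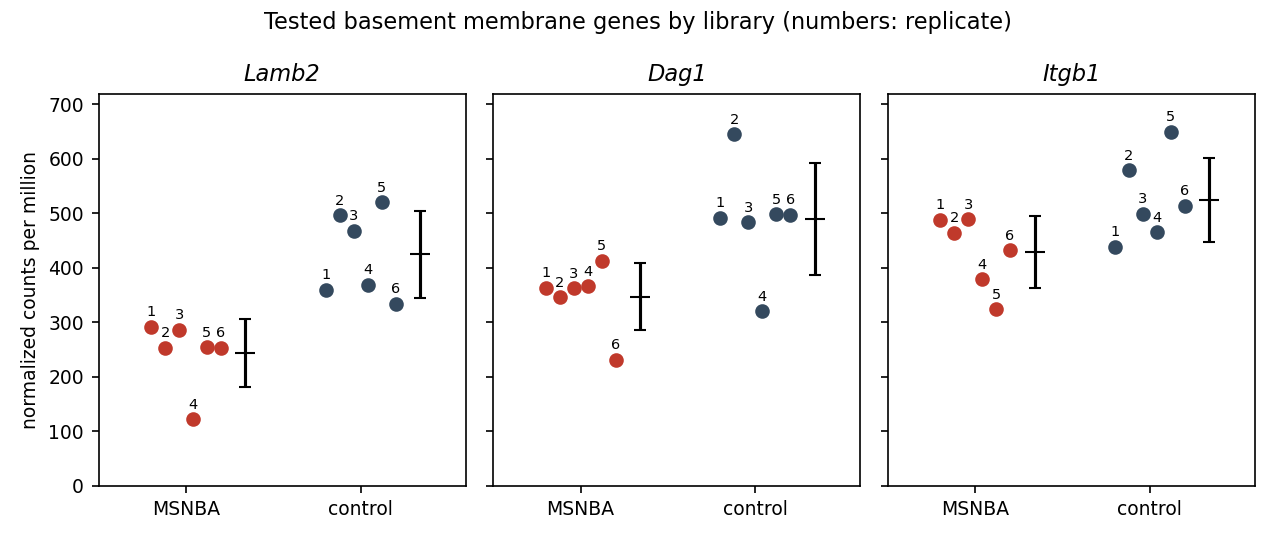
Normalized CPM of Lamb2, Dag1 and Itgb1 in each MSNBA library (left) and each control library (right), with the replicate number above each point and the mean ± SD beside each group (n = 6 each). Lamb2 shows no overlap between the groups, with 292 CPM as the highest MSNBA value and 334 CPM as the lowest control value, while Dag1 and Itgb1 overlap.

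Lamb1 did not have enough counts for the test, and its pooled levels in the groups did not separate beyond counting error. It had 3, 10.5 and 29 counts at the lowest, median and highest MSNBA library, and 2, 5 and 12 in control libraries. Pooled, these gave 43.8 CPM in MSNBA and 50.0 CPM in control, a ratio of 0.875 with an exact conditional interval from 0.573 to 1.36. Read against the same kind of ratio, Lamb2 stood at 0.691 (0.582 to 0.824). These intervals cover counting error only, and MSNBA replicate 1 holds 657251 of the 1598286 counts of the pooled MSNBA group.

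The share of Lamb2 among the counts of Lamb1 and Lamb2 describes the balance of beta chains within each library, free of library depth. It ran from 64.3% to 90.9% in MSNBA with a median of 81.6%, and from 83.3% to 92.3% in control with a median of 85.1%. The mean was 80.0% ± 9.86 in MSNBA and 86.9% ± 3.72 in control libraries (SD, n = 6 each), and the ranges overlapped. Pooled over libraries the share was 83.3% in MSNBA (95% exact binomial interval 79.3% to 86.7%) and 86.3% in control (81.4% to 90.3%), and these intervals overlapped too. Lamb2 had more counts than Lamb1 in 6 of 6 MSNBA and 6 of 6 control libraries. With both transcripts weighted by length the pooled shares were 83.6% and 86.6%.

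**Figure D4:**
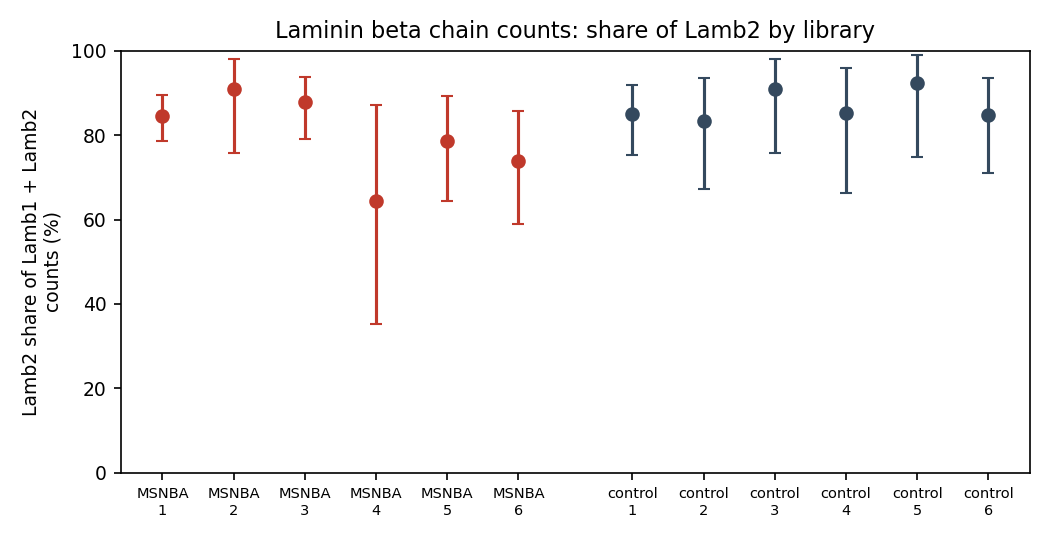
Percent of Lamb1 and Lamb2 counts that belong to Lamb2 in each MSNBA library (left 6) and each control library (right 6), with 95% exact binomial intervals for counting error. All 12 libraries lie above 60%, and the widest interval belongs to MSNBA replicate 4, which had 14 beta chain counts.

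Of the other genes of the 10, Lamc1 had 28 counts in MSNBA and 14 in control libraries, or 17.5 and 20.6 CPM, a ratio of 0.85 with an interval from 0.433 to 1.75. Hspg2 had 15 counts in each group, which at the deeper MSNBA total is 9.39 CPM in MSNBA and 22.1 CPM in control, a ratio of 0.425 with an interval from 0.194 to 0.933. Hspg2 lies on chromosome 4, 137468751 to 137570630, plus strand, and Lamc1 on chromosome 1, 153218922 to 153332786, minus strand. Counts of Hspg2 per library were low in both groups, from 0 to 5 with a median of 2 in MSNBA and from 1 to 5 with a median of 2.5 in control. Col4a1 stood at 2.50 and 4.41 CPM, a ratio of 0.567 with an interval from 0.0959 to 3.87. Nid1 had 1 count in MSNBA and 0 in control libraries, and Lama5 had 0 in MSNBA and 1 in control libraries, so that a difference in either was not detectable at this depth. Nid1 lies on chromosome 13, 13437602 to 13512275, plus strand, and Lama5 on chromosome 2, 180176373 to 180225904, minus strand. The floor of 3 counts is 1.88 CPM over the MSNBA libraries and 4.41 CPM over the control libraries.

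The other genes of basement membrane assembly, adhesion and their modifying enzymes were taken from 9 lists of 157 genes, of which 154 had a count and 31 were tested. By the edgeR test 1 of the 31 was lower and 0 were higher at an adjusted p of 0.05, where 0.0765% of all tested genes were lower. At an unadjusted p below 0.05, 3 of the 31 were lower (Actn4, Cd44 and Dpm3), where 4.78% of all tested genes were. DESeq2 called 0 of 154 with 3 below an unadjusted p of 0.05, where 2.01% of its genes were, and limma-voom called 0 of 31 with 4, where 9.91% were. The log2 fold change was above 0 for 11 and below 0 for 20, where 51.5% of all tested genes were below 0, with a median of -0.08 against -0.01 over all tested genes. The lists of other laminin chains, other collagen IV chains and integrin subunits had 0 tested genes.

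Intracellular partners of integrins held the 1 gene past the threshold. Actn4, an actin crosslinker found at adhesion sites, averaged 299 ± 66.2 CPM in MSNBA and 506 ± 116 CPM in control libraries (SD, n = 6 each), with a log2 fold change of -0.79 (SE 0.17, edgeR adjusted p = 0.0409). Over the alternatives run its adjusted p ranged between 0.00732 by edgeR without controls 2 and 4 and 0.852 by DESeq2. It was 0.119 by limma-voom and 0.388 with log2 depth in the edgeR model. DESeq2 adjusted over 19572 genes, without the filter on low counts, and gave Actn4 a log2 fold change of -0.77 (SE 0.19). With 1 library left out Actn4 passed in 3 of 12 edgeR fits, those without MSNBA replicate 4, control replicate 1 or control replicate 2. Of the 9 tested genes in this list 7 were below 0, with a median of -0.14, and none but Actn4 passed. Lims1, which encodes the adaptor PINCH, stood at 70.2 ± 26.6 CPM in MSNBA and 110 ± 51.5 CPM in control, at -0.51 (SE 0.28).

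Among other receptors, Cd44, which encodes a hyaluronan receptor, averaged 107 ± 23.5 CPM in MSNBA and 147 ± 53.2 CPM in control libraries, at -0.51 (SE 0.23), and did not pass. Rpsa, a ribosomal protein also described as a laminin-binding protein, stood at 3483 ± 598 CPM in MSNBA and 3700 ± 434 CPM in control, at -0.08 (SE 0.10). Its many processed pseudogenes make its count uncertain. With no filter on low counts its log2 fold change was 0.068, where the median of all tested genes was 0.14, against -0.01 in the main fit. Matrix components other than laminin and collagen IV had 2 tested genes. Sparc, a collagen-binding matrix protein, was the highest of them at 1087 ± 134 CPM in MSNBA and 1070 ± 111 CPM in control libraries (SD, n = 6 each), at 0.03 (SE 0.11), and its sign turned when MSNBA replicate 6 or control replicate 6 was left out.

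Dystroglycan needs O-mannosylation to bind laminin, and the enzymes and partners of that route had 5 tested genes, 2 above and 3 below 0. Dpm3, a subunit of the dolichol-phosphate-mannose synthase that supplies the mannose, averaged 566 ± 81.1 CPM in MSNBA and 728 ± 197 CPM in control, at -0.36 (SE 0.14), and did not pass. Among collagen folding enzymes, 3 were above and 4 below 0. P4hb, a prolyl hydroxylase subunit that is also protein disulfide isomerase, averaged 1814 ± 341 CPM in MSNBA and 1721 ± 191 CPM in control, at 0.07 (SE 0.11), with a sign that turned without MSNBA replicate 4. Mia2, which takes part in the export of large cargo from the endoplasmic reticulum, stood at 0.37 (SE 0.26), with 104 ± 22.6 CPM in MSNBA and 84.5 ± 30.6 CPM in control.

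Enzymes that crosslink or cut matrix were split evenly, with 2 above and 2 below 0 among 4 tested. Loxl2, a lysyl oxidase that crosslinks collagen IV, averaged 645 ± 127 CPM in MSNBA and 741 ± 201 CPM in control libraries, at -0.20 (SE 0.17), and the sign turned with log2 depth in the model. Bmp1, a protease that processes procollagen and other matrix proteins, averaged 178 ± 57.8 CPM in MSNBA and 124 ± 57.6 CPM in control, at 0.43 (SE 0.24), and did not pass.

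**Figure D5:**
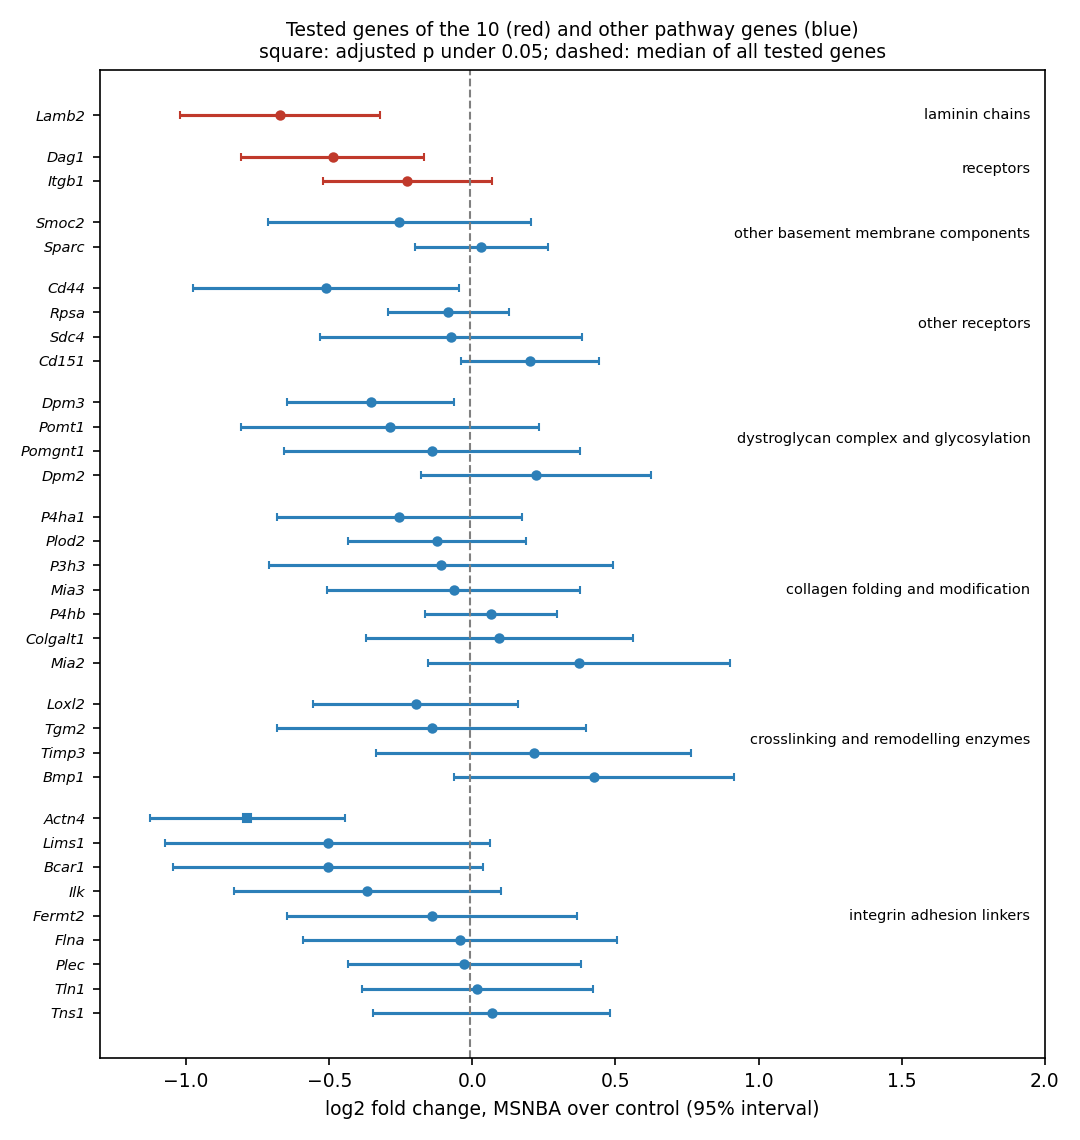
Log2 fold change of MSNBA over control for the 3 tested basement membrane genes (red) and for 30 of the 31 other tested pathway genes (blue), by list, with 95% intervals from the edgeR fit; the dashed line is the median of all tested genes. Actn4, drawn as a square, is the gene past the adjusted threshold, and most intervals include 0.

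The mean log2 CPM of Lamb2, Dag1 and Itgb1, centred within each group, was compared over the 12 libraries with the same values of 2611 other tested genes. Among the most similar were Tbca (Spearman rho 0.832, Pearson r 0.820) and Ndfip1 (rho 0.825, r 0.746), with 285 and 320 counts over all libraries. They come from the top of 2611 comparisons over libraries whose depth all genes share, and are a description with no test.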

How the data were processed

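PolyA RNA of 12 mLTC-1 libraries was measured. The authors deposited whole-number counts per gene symbol, not normalized. BWA 0.7.4.4 and mm10 are named, per the submitters' processing notes. How reads were assigned to genes and with which strand setting is not given in the sources used here. RefSeq annotation is implied by the table's name only. Genes were filtered by filterByExpr (2614 kept, 79.2% of counts), scaled by TMM and tested by the edgeR 4.0.16 robust quasi-likelihood F test (R 4.3.3) with treatment alone, two-sided, adjusted by Benjamini-Hochberg with a threshold of 0.05. Standard errors were taken as the absolute log2 fold change divided by the root of its F statistic. Normalized CPM use the counts of tested genes with TMM factors. Pooled CPM use full library totals without factors, so that the scales differ. Intervals of fitted fold changes are 95% intervals from the edgeR fit and include the spread between libraries. Intervals of pooled levels, shares and pooled ratios are 95% Poisson, exact binomial (Clopper-Pearson) and exact conditional, and cover counting error only. Floors are 3 counts per group. Molecular identifiers are likewise implied by the table's name only.

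The 10 genes and the lists were chosen with earlier results of these data known. Named genes are the 10 genes, the most counted tested gene of each list, list genes past the threshold, the 3 highest and 3 lowest of the lists and the 3 most similar genes; 2 genes that this rule names are not reported here. Transcript lengths are the longest coding GENCODE M21 transcripts, although the name of the count table implies RefSeq genes. Positions and windows are RefSeq, GRCm38.p6, with each window taken as 250 bases before to 50 after a transcript start. That start can lie inside the printed gene position, as for Lamb1, Lamb2 and Col4a1, and a gene can have several windows, as Dag1 did. Alternatives were DESeq2 1.42.0, limma-voom (limma 3.58.1), RLE, upper-quartile or no factors, no filter, a filter of 20 counts in 6 libraries, a replicate block, log2 depth, controls 2 and 4 left out, and each library left out. DESeq2 was run without the filter on low counts, so its adjustment covered 19572 genes. The edgeR, DESeq2 and voom steps were tested on simulated data. No pair of replicates agreed within sampling noise (lowest chi-square over degrees of freedom 1.24).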

Additional observations from a re-analysis of the deposited data

Results flagged for a closer look

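A lone library was looked for in 30 groups of 6, where chance gives 1.5, and 2 groups held one. Lamb2 measured 122 normalized CPM in MSNBA replicate 4, and the nearest MSNBA library had 253. That library has the lowest MSNBA total, and its 9 counts give 95.6 CPM of the full total with a 95% Poisson interval from 43.7 to 181, which overlaps the intervals of 3 other MSNBA libraries. Dag1 measured 231 normalized CPM in MSNBA replicate 6, and the nearest MSNBA library had 346. Its 31 counts give 180 CPM of the full total with an interval from 122 to 256, which overlaps those of 4 other MSNBA libraries. Without MSNBA replicate 6 the log2 fold change of Dag1 was -0.40 (SE 0.16). Whether low depth had a part in either value was not tested.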

How the results depend on the processing

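The 3 tested basement membrane genes kept a log2 fold change below 0 and an adjusted p above 0.05 under every alternative run, so that 0 were called throughout. Their median ran from -0.57 (without control replicate 4) to -0.34 (no low-count filter, where the median of all tested genes was 0.14). With 1 library left out, Lamb2 ran from -0.74 to -0.59, Dag1 from -0.57 to -0.40 and Itgb1 from -0.30 to -0.16. Groups without overlap were 2 of the 3 genes without controls 2 and 4, where 2.76% of all tested genes had none, and 1 to 2 with 1 library left out, where 0.799% to 1.69% had none (2 without control replicate 4, where 1.11% had none, Dag1 being the added gene). Genes called over the whole table, 2 in all, were 0 by DESeq2, limma-voom or with log2 depth, 15 with no filter, 1 with the stricter filter, 7 without controls 2 and 4, and 0 to 5 with 1 library left out (5 without control replicate 1). The 1 pathway gene called, Actn4, was not called (0) by DESeq2, limma-voom, no filter, the stricter filter or log2 depth, and 0 to 1 were called with 1 library left out. Signs turned for Rpsa with no filter (0.068), where the median of all tested genes was 0.14, and for Loxl2 with log2 depth (0.16). They also turned for P4hb with 1 library left out (-0.015 to 0.12) and Sparc with 1 library left out (-0.026 to 0.072). Same-numbered libraries deviated together in 3 of 6 pairs (correlations -0.23 to 0.48), and 4 of 12 libraries correlated best with their own number, so that the condition for pairing, over 0.1 in every pair, was not met. A partial pairing remains possible. With the replicate block Lamb2 was -0.70, Dag1 -0.52 and Itgb1 -0.23, with 0 called. Depth limits the 7 untested genes to counting intervals. The causes of these shifts were not tested.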

Other observations

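Lamb2 and Dag1 lie on the same stretch of chromosome 9, and the genes between them were looked up after their values were seen. Of the 11 protein-coding genes between them 4 were tested, and all 4 had a log2 fold change below 0, with a median of -0.28. The lowest was Gpx1, a glutathione peroxidase gene, at -0.51 (SE 0.14), followed by the small GTPase gene Rhoa at -0.31 (SE 0.13), the deubiquitinase gene Usp4 at -0.24 (SE 0.22) and the meiosis gene Iho1 at -0.18 (SE 0.56). Outside the interval, 4 of the 8 tested genes within 1 Mb on either side were below 0, with a median of 0.02, and 52.1% of 119 tested genes on the rest of the chromosome were, with a median of -0.03. None of the 4 genes passed the adjusted threshold, and no test was made of the stretch, which was chosen for its ends.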
